A study of Mus musculus with 6 samples.

Results

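Txnip and the thioredoxin system were followed in regulatory T cells (Tregs) sorted from mouse mammary tumors. The set held 9 of the 23420 genes measured: the thioredoxin inhibitor Txnip, its arrestin-domain relatives Arrdc3 and Arrdc4, the thioredoxins Txn1 and Txn2, the thioredoxin reductases Txnrd1 and Txnrd2, and the peroxiredoxins Prdx1 and Prdx2. The members were chosen by gene symbol, with the results of the comparison of anti-PD-1 with untreated tumors already known. Their differences between those groups are therefore given as descriptions, and no conclusion is drawn from the tests that included them. Foxp3-GFP mice of the BALB/c strain, in which Foxp3-expressing cells are labelled green, received 10000 T11 cells, a transplanted line that models claudin-low triple-negative breast cancer. The untreated group had 3 libraries (1, 2 and 3) and received no antibody. The anti-PD-1 group had 3 libraries (4, 5 and 6), from mice given 200 µg of J43, an antibody against PD-1, into the abdomen 2 times a week. In both groups tumors were taken at 150 mm2 and green cells were sorted to more than 90% purity, so other cells could remain within that margin. The sources used here give neither the ages of the mice nor the duration of treatment, nor whether each library came from a separate mouse, so spreads and errors describe these libraries and may be technical.

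Thioredoxins are small proteins that reduce disulfide bonds in other proteins. Txn1 works in the cytosol and nucleus and Txn2 in mitochondria, and each is returned to its reduced form by a selenium-containing reductase, Txnrd1 or Txnrd2, at the expense of NADPH. Peroxiredoxins destroy hydrogen peroxide and draw on thioredoxin for the electrons. Txnip is an alpha-arrestin that binds reduced thioredoxin and blocks it, and it also promotes removal of glucose transporters from the cell surface. Its transcription responds to glucose through the factors MLXIP (MondoA) and MLX, and it is known as a gene of resting lymphocytes that is lost on activation.

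The promoter of Txnip is shown first because its letters contain motifs of the factors known to control the gene. All 9 members matched a RefSeq promoter (GRCm38.p6, the same assembly as mm10), in 13 windows because Txnrd1 and Arrdc3 each have 3 annotated starts. Windows run from 250 bases before to 50 bases after the start, and the 250 bases before it are printed, 5′ to 3′ in the direction of the gene, with motif matches, searched on both strands, in capitals. Txnip lies on the plus strand (chr3:96557707-96557956) and Arrdc4 on the minus strand (chr7:68749239-68749488).
Txnip: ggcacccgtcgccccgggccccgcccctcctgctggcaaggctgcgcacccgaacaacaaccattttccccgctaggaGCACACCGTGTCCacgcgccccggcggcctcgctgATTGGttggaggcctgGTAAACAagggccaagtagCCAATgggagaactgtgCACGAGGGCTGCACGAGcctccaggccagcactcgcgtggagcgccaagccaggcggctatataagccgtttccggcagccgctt
Arrdc4: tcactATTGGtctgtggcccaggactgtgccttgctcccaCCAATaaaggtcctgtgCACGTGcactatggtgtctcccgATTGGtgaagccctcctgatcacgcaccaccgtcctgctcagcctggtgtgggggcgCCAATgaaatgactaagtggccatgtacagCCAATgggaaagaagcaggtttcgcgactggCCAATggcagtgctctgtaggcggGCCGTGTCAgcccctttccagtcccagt

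Capitals in the Txnip promoter mark, from left to right, a match to a form of the glucocorticoid response element, a CCAAT box on the opposite strand, a FOXO site, a further such box on the strand printed, and a carbohydrate response element. The last of these was searched as a pair of CACGNG half-sites 5 bases apart, the arrangement bound by MLXIP with MLX. It lay from -85 to -69 relative to the start.
Txnip carbohydrate response element: actgtgCACGAGGGCTGCACGAGcctcca
That pair was found in 16 of 32851 mouse promoter windows (0.0487%) and in no other member. The FOXO site, whose letters are GTAAACA, lay from -121 to -115 and occurred in 3.65% of all windows, and the glucocorticoid form (GNAC, with TGTNC beginning 4 bases after its end), which matched on both strands at this place (-172 to -160), in 2.39%. Arrdc4, the relative known to respond to glucose as Txnip does, held no such pair but had an E-box (CACGTG, 7.15% of windows) from -193 to -188 and 6 CCAAT boxes, and 1.06% of windows held at least 4. Txnip held 2 such boxes, and 11.7% of windows held 2 or more. Txn2, Txnrd1 and Arrdc3 also held the motif, which was in 37.4% of windows and 41.1% of genes. The E-box is a form that the half-site allows.

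A different motif was found in Arrdc4 and in other members. The core of the antioxidant response element (TGACNNNGC, bound by NFE2L2, also called NRF2, with small MAF proteins) was in 12.4% of all windows and 14% of all genes. Among the members it was found in Prdx1, Arrdc4 and Txnrd1, the last at its second start only. In each of them it lay on the opposite strand, so its complement is in capitals below.
Prdx1, -133 to -125: gaaagcGCTGAGTCAtccccc
Txnrd1, second start, -92 to -84: atttttGCTTTGTCAttctga
Arrdc4, -28 to -20: aggcggGCCGTGTCAgcccct
A form of the heat shock element (GAA, followed after 2 bases by TTC and after a further 2 bases by GAA; 0.603% of windows) was found in no member. These are matches of letters, and no binding was measured here.

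**Figure D1:**
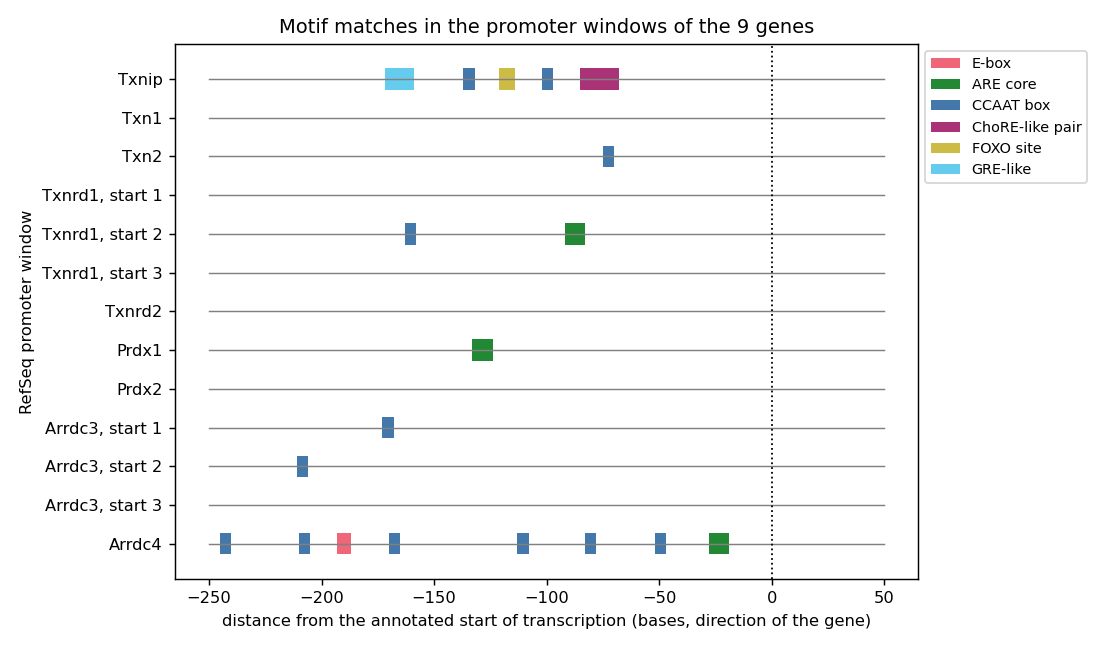
Motif matches (coloured boxes) in the 13 RefSeq promoter windows of the 9 genes (rows), by distance in bases from the annotated start of transcription (dotted line). The carbohydrate response element pair appears only in Txnip, at -85 to -69, and Arrdc4 has 6 CCAAT boxes. The 3 starts of Txnrd1 and of Arrdc3 are separate rows.

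Libraries held between 4766533 and 6686774 assigned fragments, and every untreated library was deeper than every anti-PD-1 library (exact permutation test of the 6 totals, two-sided, p = 0.1, the smallest it allows). Levels are in CPM, a counts-per-million unit scaled between libraries by TMM. The 8 Treg and CD4 T cell markers were all detected, and their summed level was 7557, 6955 and 6953 CPM in untreated and 6628, 6322 and 5849 CPM after anti-PD-1, lower without overlap. Within that list Foxp3 stood between 437 and 460 CPM in untreated and between 461 and 562 CPM after anti-PD-1. Cd4 stood between 365 and 459 CPM in untreated and between 467 and 496.5 CPM after anti-PD-1. Both were higher after anti-PD-1 without overlap, so the lower sum came from other genes of the list. Cd8a ranged from 5.40 to 15.6 CPM and from 9.89 to 23.8 CPM, and the epithelial gene Krt8 was at 0 in every library. Summed over 8 macrophage markers the level was 12.97 to 28.1 CPM in untreated and 14.01 to 29.4 CPM after anti-PD-1, with C1qa at 0. The 6 neutrophil markers summed to 11.4 to 20.2 CPM in untreated and 1.52 to 4.33 CPM after anti-PD-1, with S100a9, Csf3r and Cxcr2 at 0 in all. The 4 NK cell markers were also lower without overlap (7.685 to 9.107 CPM against 2.679 to 7.657 CPM). The 5 dendritic cell markers were higher without overlap (0.160 to 3.57 CPM in untreated, 3.71 to 6.83 CPM after anti-PD-1). The CD8 T cell, B cell and erythroid lists overlapped between groups. The 9 tumor, epithelial and stromal markers, of which 8 were detected and only Krt8 was not, summed to 112 to 140 CPM and 140 to 190 CPM. The part of depth and of these marker lists in the results was not tested. Untreated library 1 stood apart from the others on the first dimension of a scaling of all tested genes (2.40, the others from -0.67 to -0.39), so the fold change of each member is also given without it, and that of a list gene where it moved by over 1.5 times.

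With all 6 libraries Txnip had the largest fold change of the 9 members; without untreated library 2 that of Txnrd1 was larger in size (-0.92 against 0.83 on the log2 scale). Its level was 94.0, 122 and 171 CPM in untreated libraries 1, 2 and 3, and 262, 278 and 165 CPM after anti-PD-1 4, 5 and 6. Anti-PD-1 libraries 4 and 5 lay above every untreated library, and library 6 lay just under untreated library 3, so the groups overlapped. Counting error alone did not separate untreated 3 from anti-PD-1 6, whose intervals overlap, but did separate anti-PD-1 4 from both. The exact Poisson 95% interval ran from 160.8 to 182 CPM in untreated 3, from 154 to 177 CPM in anti-PD-1 6 and from 248.5 to 276 CPM in anti-PD-1 4 (counting error only). The means were 129 ± 39.1 CPM in untreated and 235 ± 60.9 CPM after anti-PD-1 (SD over 3 libraries each), a fitted fold of 1.83 and a log2 fold change of 0.87 ± 0.21 (SE). Without untreated library 1 the log2 fold change was 0.68 ± 0.21, and over the leaving out of each library in turn it was highest, 1.13, without untreated library 3. In bulk RNA, fewer cells of a type and less RNA per cell cannot be told apart.

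The count of calls was set beside the same count over all genes. EdgeR's quasi-likelihood test called 3 of 10352 tested genes at a Benjamini-Hochberg adjusted p under 0.05 (0.029%), and 0 of the 9 members, all of which had passed the filter on low counts. At an unadjusted p under 0.05 stood 860 genes (8.31%), of which 438 (4.23%) were higher after anti-PD-1, and 1 member, Txnip, which was higher. DESeq2 called 34 of the 4331 genes to which it gave an adjusted p (0.785%), among them Txnip and no other member; 3 members received no adjusted p from it. Run on the whole table instead of the filtered genes, DESeq2 called no member. In CPM the groups did not overlap in 1410 genes (13.6%), and in 0 of the 9 members. Since the members were proposed with this comparison known, nothing is read from these counts.

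**Figure D2:**
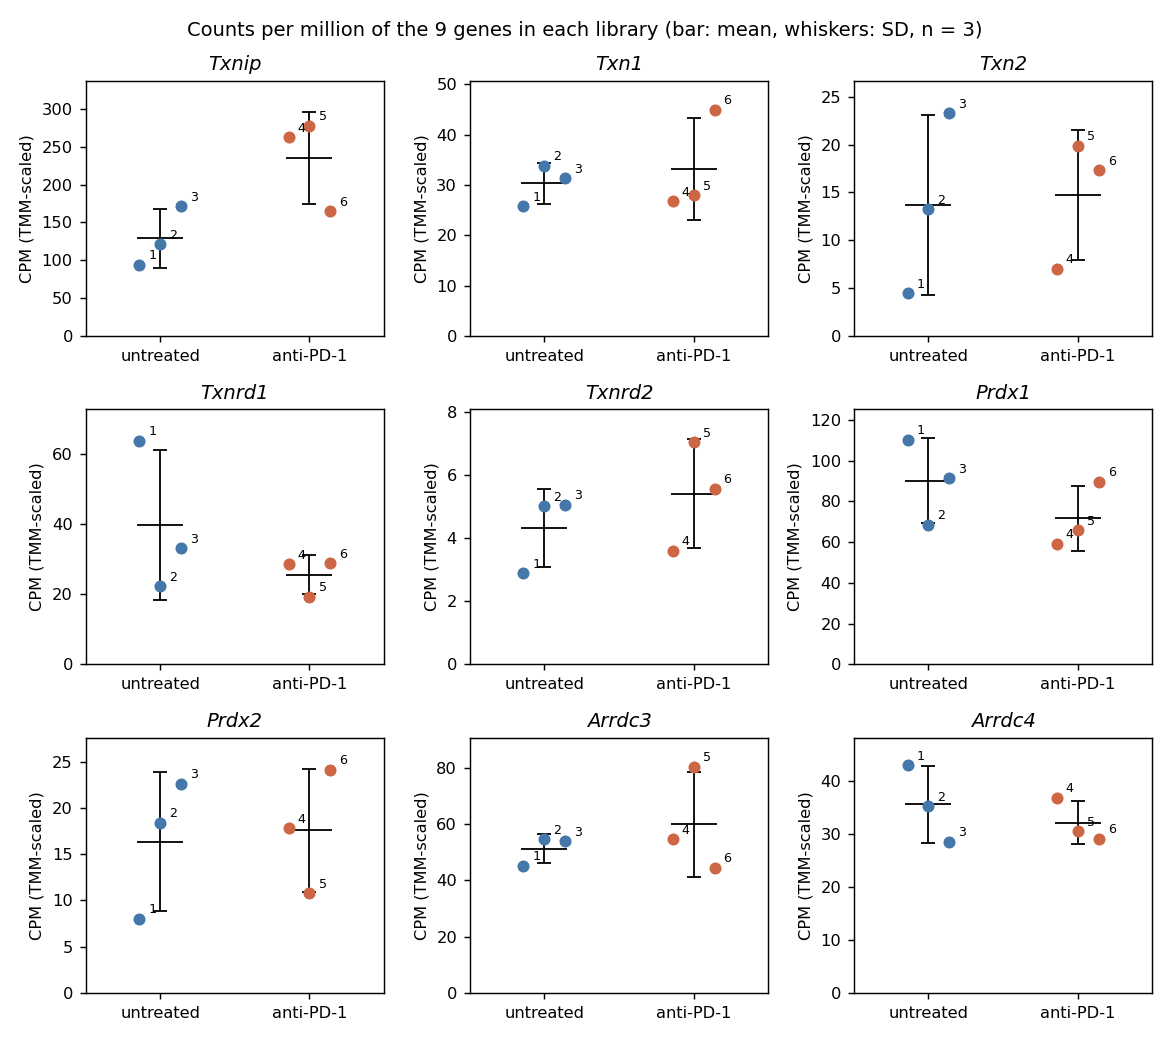
TMM-scaled CPM (y axes, each from 0) of the 9 genes in untreated libraries (blue, 1 to 3) and anti-PD-1 libraries (orange, 4 to 6); numbers name the library, the wide bar is the mean and the whiskers the SD of 3 libraries. For Txnip, libraries 4 and 5 lie above all untreated libraries, and in every panel the groups overlap.

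The arrestin-domain relatives of Txnip had smaller fold changes, each below its SE. Arrdc3, an adaptor that brings NEDD4-type ubiquitin ligases to receptors, stood at 45.3, 54.7 and 54.0 CPM in untreated and at 54.8, 80.5 and 44.5 CPM after anti-PD-1. Library 5 alone was high, library 6 was the lowest of all, and the log2 fold change was 0.22 ± 0.24 (SE), or 0.14 ± 0.24 without untreated library 1 and -0.04 without anti-PD-1 library 5. Arrdc4 stood at 42.9, 35.2 and 28.5 CPM in untreated and at 36.8, 30.4 and 29.1 CPM after anti-PD-1. All anti-PD-1 values of Arrdc4 lay within the untreated range, with a log2 fold change of -0.15 ± 0.27, and 0.02 ± 0.28 without untreated library 1. Within a library, Txnip had 2.07, 2.22 and 3.17 times the fragments of Arrdc3 in the untreated libraries and 4.79, 3.45 and 3.71 times in the anti-PD-1 libraries. The groups did not overlap, with a log2 difference of 0.69. That was so for 1 of the 9 ratios computed, a chosen set and not all pairs of members. Several of these ratios share Txnip, so the 13.6% of single genes given above is only a rough comparison. Txnip to Arrdc4 went from 2.19, 3.45 and 6.01 in untreated to 7.13, 9.12 and 5.69 in anti-PD-1 libraries, and overlapped.

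The thioredoxins, on which Txnip acts, showed small fold changes. Txn1 stood at 25.8, 33.8 and 31.4 CPM in untreated and at 26.7, 27.9 and 44.9 CPM after anti-PD-1. Libraries 4 and 5, the 2 with the most Txnip, lay within the untreated range of Txn1, and library 6, with the least Txnip of the treated 3, was the highest of all. Untreated library 1, however, was the lowest of all in both Txnip and Txn1. The log2 fold change of Txn1 was 0.13 ± 0.29 (SE), 0.02 ± 0.29 without untreated library 1 and -0.14 without anti-PD-1 library 6. Mitochondrial Txn2 stood at 4.48, 13.2 and 23.3 CPM in untreated and at 7.01, 19.9 and 17.3 CPM after anti-PD-1. The SDs within groups (9.40 and 6.80 CPM) were larger than the gap between the means (13.7 and 14.7 CPM), and the log2 fold change of 0.10 ± 0.49 became -0.34 ± 0.41 without untreated library 1 and 0.75 without untreated library 3.

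The ratio of Txnip to Txn1 fragments needs no scaling between libraries. It was 3.65, 3.60 and 5.46 in untreated libraries and 9.81, 9.93 and 3.68 in anti-PD-1 libraries. Libraries 4 and 5 were well above the untreated ones, while library 6 was among them, so the groups overlapped. The mean log2 ratio was 2.05 ± 0.34 untreated and 2.83 ± 0.82 after anti-PD-1 (SD, n = 3 per group), a difference of 0.77 that lay between 0.53 and 1.25 when 1 library was left out; the higher value was without anti-PD-1 library 6. Against the summed fragments of Txn1, Txn2, Txnrd1 and Txnrd2 the difference was 1.04.

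Both reductases had fold changes that depended on single libraries. Txnrd1, the cytosolic enzyme, stood at 63.7, 22.3 and 33.1 CPM in untreated and at 28.6, 19.2 and 28.8 CPM after anti-PD-1. Untreated library 1 was far above the rest, with a Poisson 95% interval of 57.6 to 70.3 CPM, and the other 5 lay between 19.2 and 33.1 CPM. The log2 fold change of -0.65 ± 0.34 (SE) shrank to -0.12 ± 0.31 without it. Mitochondrial Txnrd2 was the lowest member, at 2.88, 5.004 and 5.06 CPM in untreated and 3.60, 7.04 and 5.56 CPM after anti-PD-1, from 18 to 34 fragments each. At that depth the intervals of most libraries overlapped, and the log2 fold change was 0.32 ± 0.62. It was 0.09 when either untreated library 1 or anti-PD-1 library 5 was left out, and 0.55 when anti-PD-1 library 4 was.

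Of the peroxiredoxins, Prdx1 stood at 110.3, 68.6 and 91.4 CPM in untreated and at 59.3, 66.02 and 89.6 CPM after anti-PD-1. Libraries 4 and 5 lay just under the lowest untreated one and library 6 near the middle of that group, with a log2 fold change of -0.34 ± 0.22 (SE), or -0.17 ± 0.22 without untreated library 1. Prdx2 stood at 8.005, 18.4 and 22.6 CPM in untreated and at 17.8, 10.8 and 24.1 CPM after anti-PD-1. Its low values were untreated 1 and anti-PD-1 5, 1 in each group, and its log2 fold change was 0.12 ± 0.41. The sign turned without untreated library 1 (-0.23 ± 0.37) or anti-PD-1 library 6 (-0.17), while the value was 0.43 without untreated library 3 and 0.37 without anti-PD-1 library 5. Over the 9 members the median log2 fold change was 0.12, against 0.00164 over all tested genes, with 6 members above 0 and 3 below. Without untreated library 1 the median was 0.0156, and 5 members were above 0.

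**Figure D3:**
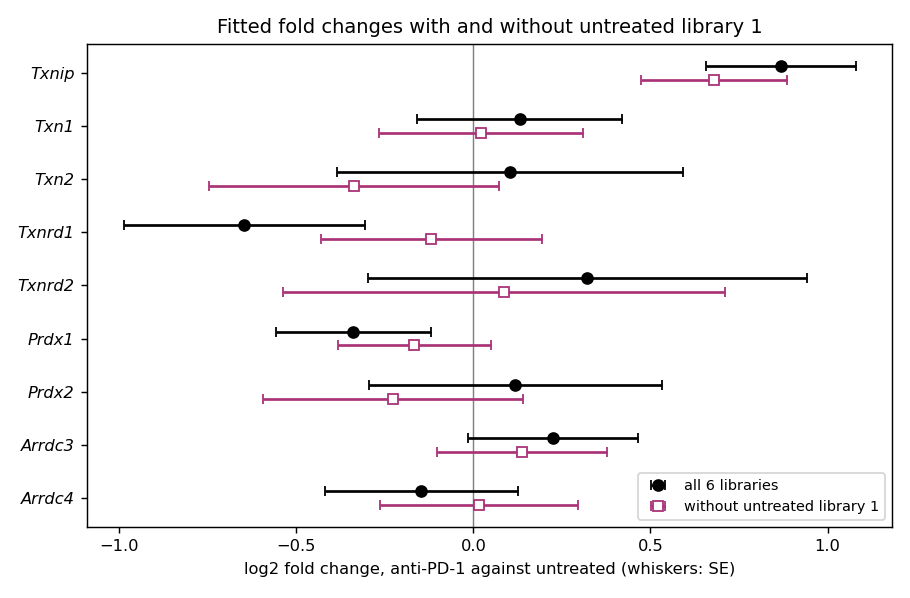
Log2 fold changes (x axis, anti-PD-1 against untreated) of the 9 genes from edgeR with all 6 libraries (black circles) and without untreated library 1 (open squares); whiskers are SE. Txnip is at 0.87 and 0.68, Txnrd1 moves from -0.65 to -0.12, and Txn2, Prdx2 and Arrdc4 change sign.

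Untreated library 1 differed in the balance of the system. It held the highest or the lowest value of all 6 libraries in 8 of the 9 members, the exception being Arrdc3, and in 53.2% of all tested genes, against 23.9% to 35.1% for each other library. In it Txnrd1, Prdx1 and Arrdc4 were at their highest, and Txnip, Txn1, Txn2, Txnrd2 and Prdx2 at their lowest. Its Txn2 level was 0.246 times the mean of the other untreated libraries, its Txnrd1 level 2.30 times and its Txnrd2 level 0.573 times. The cytosolic and mitochondrial reductases therefore stood at 22.1 Txnrd1 fragments for each Txnrd2 fragment there, and at 2.74 to 7.95 elsewhere. The ratio in untreated library 1 came from 398 Txnrd1 fragments and only 18 Txnrd2 fragments. Likewise there were 13.8 Prdx1 fragments for each Prdx2 fragment, against 3.33 to 6.14 in the other 5 libraries. This library was also the deepest, yet it had the fewest genes detected (11653, the others from 11848 to 13155). The part of depth and of gene detection in these values was not tested.

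**Figure D4:**
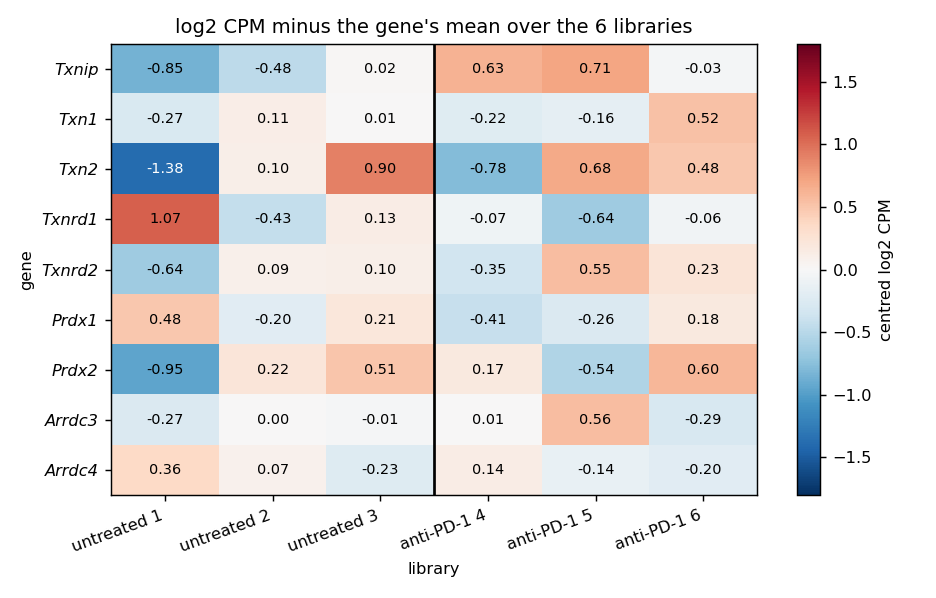
Log2 CPM of each gene (rows) in each library (columns) minus the gene's mean over the 6 libraries; red is above and blue below that mean, and the black line separates untreated from anti-PD-1. Untreated library 1 holds the extremes of most rows (Txn2 -1.38, Txnrd1 1.07), and Txnip is highest in libraries 4 and 5 (0.63 and 0.71).

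Levels of different genes were compared per kilobase of exon. In the untreated libraries Prdx1 was the highest member at 63.6 ± 14.7 CPM per kilobase, above Txnip at 46.0 ± 13.97 (SD, n = 3). In the anti-PD-1 libraries Txnip came first at 83.9 ± 21.7 and Prdx1 second at 50.6 ± 11.2. Txnip exceeded Prdx1 in 2 of the 6 libraries, 4 and 5, so over all 6 these neighbours did not differ beyond their spread. Below them came Txn1 (30.2 over all 6 libraries), Prdx2 (18.0), Arrdc3 (13.6), Txn2 (11.1), Arrdc4 (8.55), Txnrd1 (8.12) and Txnrd2 (2.55 CPM per kilobase). Prdx1 was above Txn1, and Txn1 above Prdx2, in all 6 libraries. From Prdx2 down to Txnrd1 each gene was above the next in only 4 of 6, and Txnrd2 was below Txnrd1 in all 6 with no overlap of their ranges. Among all tested genes 92.2% were lower than Txnip on this scale, 91.1% lower than Prdx1 and 19.5% lower than Txnrd2.

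The positions of the members, all in mm10, bear on how their reads were counted. Txnip spans chromosome 3 from 96557957 to 96561857 on the plus strand in 8 exons (2801 bases). Gm15441, a gene on the opposite strand, overlaps exons of Txnip and held 1 to 8 fragments per library, against 587 to 1383 for Txnip, with fragments assigned by strand. Txnrd1 (chromosome 10, 82833951 to 82897724, plus strand) shares its locus with Eid3 on the same strand, whose exons lie apart from its own and which held 0 to 27 fragments. Prdx1 (chromosome 4, 116685599 to 116700000, plus strand) overlaps AV051173 on the opposite strand, which held at most 2. Arrdc3 lies on chromosome 13 (80883422 to 80896043, plus strand), Arrdc4 on chromosome 7 (68736994 to 68749238, minus strand) and Txn1 on chromosome 4 (57943373 to 57956411, minus strand), and no other gene of the table overlaps them. The same holds for Txn2 on chromosome 15 (77915051 to 77928994, minus strand) and Prdx2 on chromosome 8 (84969648 to 84974313, plus strand). Txn1 and Prdx1 have processed copies elsewhere in the mouse genome. Fragments were counted without an option for multi-mapping reads, but the sources used here do not say how the aligner placed reads shared with such copies.

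Genes around the system were taken from 7 lists. Of their 100 genes 89 were tested, and edgeR called 0 of them. DESeq2 also called 0, but gave some of them, such as Hmox1 and Secisbp2, no adjusted p, so those could not be called. At an unadjusted p under 0.05 in edgeR, 1 was higher and 3 were lower, beside 8.31% of all tested genes in either direction. Of the 89 fold changes 44 lay above 0 (median log2 fold change -0.0166, or 0.0149 without untreated library 1, against 0.00164 over all tested genes). Prdx6, a peroxiredoxin that uses glutathione in place of thioredoxin, was the higher one. It stood at 58.0, 55.04 and 60.0 CPM in untreated and at 85.7, 90.0 and 93.3 CPM after anti-PD-1, a log2 fold change of 0.64 ± 0.20 (SE, edgeR adjusted p = 0.424). Its groups did not overlap and varied little within themselves, and without untreated library 1 the log2 fold change was again 0.64. The tested list genes named here and below were picked by smallest p in these data, at most 4 per list. That choice favours groups that do not overlap. Over all tested genes 13.6% had no overlap, and the share within the lists was not counted. In the list of 17 tested genes for removal of peroxide and superoxide, 8 lay above 0 and 9 below (median -0.14), among them Gpx1 at 0.39 ± 0.23 (0.20 without untreated library 1) and the peroxiredoxin repair enzyme Srxn1 at -1.08 ± 0.88, from under 10 CPM.

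The 3 genes with lower values at an unadjusted p under 0.05 were the thioredoxin-like gene Txnl1 and the ribonucleotide reductase subunits Rrm1 and Rrm2, whose enzyme takes electrons from thioredoxin or glutaredoxin. Txnl1 stood at 73.8, 66.3 and 72.4 CPM in untreated and at 39.1, 57.1 and 56.7 CPM after anti-PD-1, with no overlap (log2 fold change -0.48 ± 0.22, edgeR adjusted p = 0.572). Other genes of its list went the other way without overlap: Txnl4a (0.35 ± 0.21), Txnl4b (1.28 ± 0.765) and Nxn (0.97 ± 0.62). Rrm1 stood at 172, 149 and 170.2 CPM and at 118.5, 76.8 and 129.8 CPM, also without overlap (edgeR adjusted p = 0.449). Rrm2 stood at 53.95, 42.35 and 58.02 CPM and at 27.3, 22.35 and 45.54 CPM, and its groups overlapped. The log2 fold change of Rrm2 was -0.70 ± 0.27 (edgeR adjusted p = 0.522). The list of thioredoxin fold relatives and glutaredoxins had 7 of 16 tested genes above 0 (median -0.07), and that of clients and partners 4 of 12 (median -0.12); without untreated library 1 both medians were -0.19. In the latter the glucose transporter gene Slc2a1, whose product Txnip helps to remove from the surface, stood at 31.9, 84.7 and 80.6 CPM in untreated and at 86.3, 99.3 and 81.0 CPM after anti-PD-1. Untreated library 1 alone was low, and the log2 fold change of 0.44 ± 0.26 was 0.10 ± 0.19 without it.

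The list of NRF2 with its partners and repressors, its targets and genes of glutathione supply had 12 of 17 tested genes above 0 (median log2 fold change 0.16). Nfe2l2 itself stood at 0.36 ± 0.26 (SE). Its target Hmox1, the heme-degrading enzyme, stood at 8.65, 8.76 and 7.42 CPM in untreated and at 1.33, 6.62 and 3.50 CPM after anti-PD-1, without overlap but at a low level (-1.14 ± 0.60, edgeR adjusted p = 0.644). The targets Nqo1 and Slc7a11 were too low to be tested. Among 11 tested regulators of Txnip transcription 3 lay above 0 (median -0.08), and 5 without untreated library 1 (median -0.09). Mlxip, the glucose sensor of the carbohydrate response element printed above, stood at 64.0, 75.4 and 73.0 CPM in untreated and at 97.8, 77.8 and 86.7 CPM after anti-PD-1, with no overlap (0.31 ± 0.20, edgeR adjusted p = 0.711). Its relative Mlxipl was too low to be tested, at means of 0.534 and 0.195 CPM. Foxo1 stood at 0.19 ± 0.14 and the glucocorticoid receptor gene Nr3c1 at -0.21 ± 0.15 (-0.10 without untreated library 1).

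The alpha-arrestin relatives and their ligases had 5 of 9 tested genes above 0 (median 0.08), with the ligase gene Wwp1 at 0.32 ± 0.22 (SE) and Arrdc1 at 0.50 ± 0.35, or 0.18 without untreated library 1. The machinery that inserts selenocysteine, on which both reductases depend, had 5 of 7 above 0 (median 0.24, and 0.0411 without untreated library 1). In it Secisbp2, which reads the selenocysteine signal, stood at 21.1, 20.4 and 18.4 CPM in untreated and at 33.9, 31.9 and 23.7 CPM after anti-PD-1, without overlap (0.58 ± 0.31, edgeR adjusted p = 0.639).

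**Figure D5:**
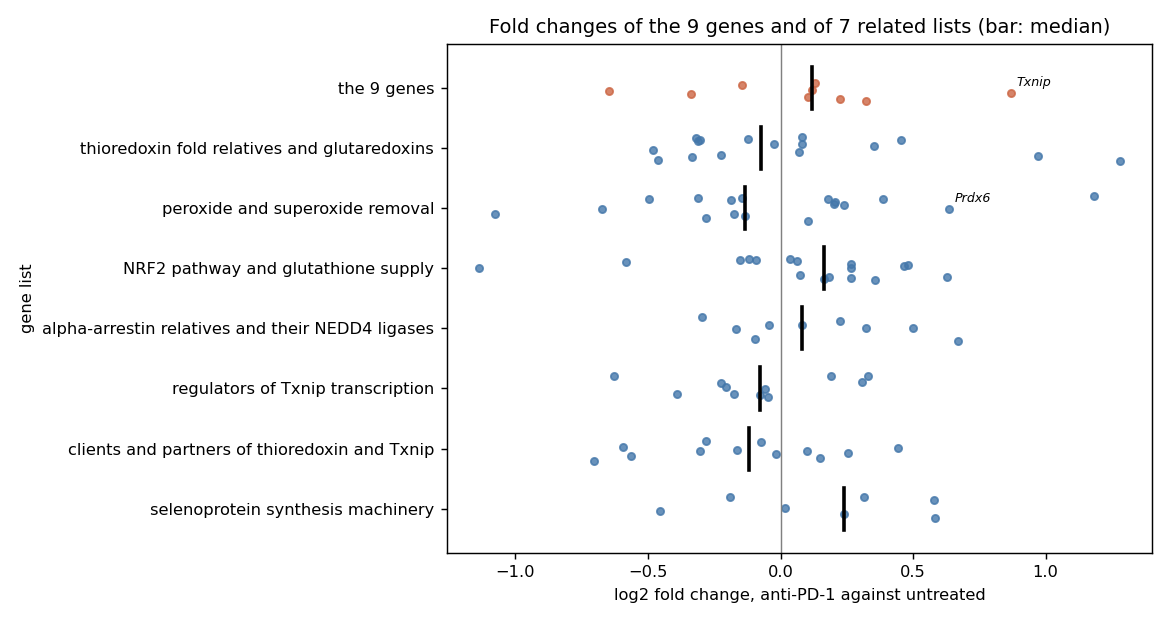
Log2 fold changes (x axis, anti-PD-1 against untreated) of the 9 genes (orange) and of the tested genes of 7 related lists (blue); black bars are medians and vertical scatter only separates points. Txnip is the highest of the 9 at 0.87, and the list medians lie between -0.14 and 0.24.

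The genes whose pattern over the 6 libraries was most like that of Txnip were found by the root mean square difference of mean-centred log2 CPM, over 8684 genes with a mean of at least 5 CPM. They were Dedd2 (a difference of 0.119), Lemd2 (0.141), Fxr2 (0.158), Ncstn (0.167) and Card6 (0.168), where the departures of Txnip from its own mean had a root mean square of 0.555. Card6, the most abundant of them, stood at 54.3, 57.2 and 78.3 CPM in untreated and at 114.9, 138.9 and 98.7 CPM after anti-PD-1. Dedd2 stood at 13.8, 16.3 and 28.3 CPM and at 38.3, 43.3 and 28.6 CPM, with untreated 3 level with anti-PD-1 6, as in Txnip. Of the 7 other members compared, the nearest to Txnip was Arrdc3 at place 647 and the farthest Txnrd1 at place 8054; Txnrd2 was below the minimum level. For Txn1 the most similar were Rpl13a (0.0439), Copz1, 2810403A07Rik, Gtf2i and Limd2 (0.0977), each highest in anti-PD-1 library 6. The 6 libraries these patterns rest on differ in treatment and depth together.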

How the data were processed

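RNA from GFP-positive tumor Tregs was sequenced from 3 untreated and 3 anti-PD-1 NuGEN Ovation SoLo libraries, per the labels' protocols. Deposited files hold whole-number fragment counts for each gene, made by the authors with featureCounts 1.5.2 on the UCSC mm10 annotation, by strand (setting 1) and without options for multi-mapping or multi-overlapping reads, per the file headers. The alignment names contain bbmap; the sources used here give no aligner settings or duplicate handling. An additional unnamed column (1) was not used, and 27 symbols that appear as dates were kept as separate genes and not named. The gene length column gave CPM per kilobase.

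The members, lists and tests were chosen with earlier results of these data known. Genes passing edgeR's filterByExpr (10352) were scaled by TMM and tested with glmQLFit (robust, legacy = FALSE) and glmQLFTest in edgeR 4.0.16 (R 4.3.3), two-sided, with Benjamini-Hochberg adjusted p-values (threshold 0.05) across the tested genes; SE is the log2 fold change over the root of F. Alternatives were DESeq2 1.42.0, limma-voom 3.58.1, other scalings and filters, and leaving out each library. The tests were tested on simulated data. The text names all members, up to 4 genes per list by smallest p, and the 5 genes most like Txnip and Txn1. All 100 pathway symbols matched the table, and 1 of 52 marker symbols did not. Motifs were searched on both strands of RefSeq promoters (GRCm38.p6). A gene beside one of the members is not reported here.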

Additional observations from a re-analysis of the deposited data

How the results depend on the processing

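The log2 fold change of Txnip kept its sign under all 17 alternatives, from 0.68 (without untreated replicate 1) to 1.13 (without untreated replicate 3) on leaving out a library and from 0.71 to 0.90 otherwise. The count of 0 members called became 1, Txnip, with DESeq2 on the filtered genes and with edgeR without a filter; in the other 15 it was 0, and no pathway gene was called under any. DESeq2 on the whole table and edgeR's earlier (legacy) test were added after seeing the data. The count of all genes called was 3 with edgeR, 34 with DESeq2, 29 with DESeq2 on the whole table, 12 with limma-voom with quality weights, 52 without a filter, 7 with total counts only, and 5 each with limma-voom, upper quartile scaling or no robust shrinkage; leaving out 1 library gave from 1 (without anti-PD-1 replicate 5) to 19 (without untreated replicate 1), with 6 without untreated replicate 2, 5 without untreated replicate 3 or anti-PD-1 replicate 6, and 3 without anti-PD-1 replicate 4. The causes were not tested. The fold changes of Txnrd1, Txnrd2 and Prdx1 kept their sign in all 17, and those of Txn1, Arrdc3 and Arrdc4 turned in 1, of Prdx2 in 3 and of Txn2 in 4. The Txnip to Txn1 difference ranged from 0.53 to 1.25. Ordered by CPM without division by length, 3 of the 9 members kept their place. With a prior count of 0.5 in place of 2, all 5 genes most like Txnip and all 5 most like Txn1 were the same. No paired analysis was possible because the groups share no replicate numbers. Depth limits Txnrd2 most, with 18 to 34 fragments per library.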
